A study of Mus musculus with 6 samples.

Results

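The vascular endothelial growth factor (VEGF) family was followed in PDPN+PDGFRα+ stromal cells sorted from MO5 tumors, through 9 genes that encode ligands (Vegfa, Vegfb, Vegfc and Pgf), receptor tyrosine kinases (Flt1, Kdr and Flt4) and neuropilins (Nrp1 and Nrp2). The genes were taken by name from a table of 53801 genes, and all 9 had enough counts to be among the 15133 genes tested. MO5 tumors grow from B16-OVA melanoma cells, here placed under the skin of adult C57BL/6 mice. The 3 DTR libraries came from ADAM12-DTR mice, which the labels call DTR+ and in which a bacterial artificial chromosome transgene places the diphtheria toxin receptor under the Adam12 promoter. The 3 Ctrl libraries came from littermates without the transgene, labelled DTR-. Diphtheria toxin (DT) was given to both groups, so that they differ in the transgene and not in the toxin. CD45+ leukocytes and CD31+ endothelial cells were gated out, and the sort gathered all PDPN+PDGFRα+ cells, of which ADAM12+ cells are only a part. The labels do not say whether 1 library holds 1 mouse or a pool, and the p-values measure the spread between these libraries.

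VEGF ligands are secreted dimers that act on blood and lymphatic vessels. VEGF-A, which low oxygen induces in many cells, binds VEGFR1 and VEGFR2, the products of Flt1 and Kdr, and VEGFR2 carries most of its signal for endothelial growth and permeability. VEGFR1 binds VEGF-A tightly and signals weakly, and its soluble form acts as a decoy, while VEGF-B and placental growth factor (Pgf) bind VEGFR1 alone among the VEGF receptors. VEGF-C and VEGF-D are cut by proteases before they bind VEGFR3, the product of Flt4, on lymphatic endothelium. Neuropilins are co-receptors for VEGFs and for class 3 semaphorins and are found on many mesenchymal cells.

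The promoters of Flt1, Kdr and Vegfa are shown because Flt1 and Kdr had the lowest and the highest fold change of the 9 and Vegfa is the ligand best known for its response to oxygen. They were taken from RefSeq (GRCm38.p6), 250 bases before to 50 bases after the annotated start, 5′ to 3′ on the strand of the gene, which is the minus strand for each of them. They lie at chr5:147725962-147726261 for Flt1, chr5:75978406-75978705 for Kdr and chr17:46032328-46032627 for the first of the Vegfa promoters. Capitals mark exact matches, on either strand, to TGACGTCA (the cAMP response element), AGGAAG (which holds the ETS core), ACGTG (the core of the hypoxia response element), GGGCGG (the GC box) and TATAAA (the TATA box).
Flt1: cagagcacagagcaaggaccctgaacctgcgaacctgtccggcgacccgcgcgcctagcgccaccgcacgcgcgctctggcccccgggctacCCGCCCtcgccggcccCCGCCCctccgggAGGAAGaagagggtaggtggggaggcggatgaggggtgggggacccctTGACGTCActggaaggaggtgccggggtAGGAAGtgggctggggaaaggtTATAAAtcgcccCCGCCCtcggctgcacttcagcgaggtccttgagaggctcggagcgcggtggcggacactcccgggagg
Kdr: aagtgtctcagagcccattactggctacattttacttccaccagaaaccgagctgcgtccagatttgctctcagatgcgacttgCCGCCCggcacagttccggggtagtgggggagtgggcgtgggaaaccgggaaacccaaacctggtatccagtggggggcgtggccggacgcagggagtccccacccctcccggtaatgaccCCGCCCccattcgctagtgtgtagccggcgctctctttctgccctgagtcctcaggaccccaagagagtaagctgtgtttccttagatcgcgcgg
Vegfa: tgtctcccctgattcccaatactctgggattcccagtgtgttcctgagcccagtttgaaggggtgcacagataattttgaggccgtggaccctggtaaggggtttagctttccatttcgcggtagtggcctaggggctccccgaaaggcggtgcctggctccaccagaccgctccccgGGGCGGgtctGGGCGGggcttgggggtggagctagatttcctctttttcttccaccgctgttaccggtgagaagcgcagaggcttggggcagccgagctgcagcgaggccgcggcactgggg
The Flt1 window held TGACGTCA at -81 from the start, a match found in 1.79% of 32851 promoters of the same length. It also held AGGAAG at -129 and -53 (35.4% of promoters), TATAAA at -31 (13.6%) and GC boxes at -158, -142 and -19 (35.7%). The windows of Kdr and Vegfa held GC boxes and none of the other motifs searched, at -166 and -45 in Kdr and at -72 and -62 in Vegfa. ACGTG, found in 19.6% of promoters, was in none of the 3 windows, which says only that these letters are not in these bases, and the second Vegfa promoter of RefSeq, not shown, held it on the opposite strand at -211. G and C made up 70.7% of the Flt1 window, 60.7% of that of Kdr and 62.0% of that of Vegfa, against a median of 52.7% over all promoters.

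Between 22339635 and 34271929 counts per library fell on genes, and 3 counts, used as the floor of detection, correspond to 0.0873 to 0.132 CPM, which are counts scaled to the library total with edgeR's TMM factors. This floor covers counting error only. Before the results, the cell type of the fraction was checked against marker lists. Fibroblast markers (10 genes, Pdgfra, Pdpn and collagen genes among them) summed to 13716, 5275 and 5207 CPM in Ctrl 1, 2 and 3 and to 10967, 5618 and 14388 CPM in DTR 1, 2 and 3, so that Ctrl 1, DTR 1 and DTR 3 stood apart from the other libraries within both groups. Melanoma markers (12 genes, Dct and Tyrp1 the most abundant) summed to between 16874 and 21051 CPM and exceeded the fibroblast sum in every library, although the label names stromal cells. Of the endothelial markers, Erg had at most 9 counts in any library, Egfl7 3, Cldn5 2 and Sox17 0, while Vwf had 345 to 682, Pecam1, which encodes the CD31 used in the sort, 64 to 276, Tal1 70 to 145, Plvap 4 to 42 and Cdh5 0 to 39. The endothelial sum (15 genes, 164 to 193 CPM) was 83.2% Eng, which other stromal cells also express. Macrophage markers (13 genes, with Itgam at 0 in every library) summed to 232 to 321 CPM in Ctrl and 247 to 267 CPM in DTR, with 40.6% from Mertk. Ptprc, which encodes the CD45 used in the sort, had 399 to 1192 counts, Lyz2 572 to 1467 and Adgre1 102 to 273. The part of melanoma cells in the levels below was not tested. Adam12 had 191 ± 22.1 CPM in Ctrl and 143 ± 27.6 in DTR (SD, n = 3 each) and was lower in every DTR library, as were 8.18% of all genes tested. Its log2 fold change of -0.42 had an unadjusted p of 0.0265 in edgeR. The adjusted p was 0.602, the smallest of any gene tested. With an offset for genomic span the log2 fold change was -0.65.

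Per kilobase of exon, the family was led by the ligands Vegfb and Vegfa and by the neuropilin Nrp2, and the receptor kinases and Pgf were lowest. The mean level over the 6 libraries was 62.6 CPM per kilobase for Vegfb, 36.4 for Nrp2, 27.0 for Vegfa, 8.55 for Nrp1 and 4.19 for Vegfc. It was 1.13 CPM per kilobase for Flt4, 0.944 for Pgf, 0.490 for Kdr and 0.487 for Flt1. Vegfb stood above Nrp2, Vegfa above Nrp1, Nrp1 above Vegfc and Vegfc above Flt4 in 6 of 6 libraries and without overlap of their ranges. The ranges overlapped for the neighbours Nrp2 and Vegfa, Flt4 and Pgf, Pgf and Kdr, and Kdr and Flt1, so the order within these pairs was not resolved. In the plot of levels by library, Flt1 and Kdr are the genes with the widest spread.

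**Figure D1:**
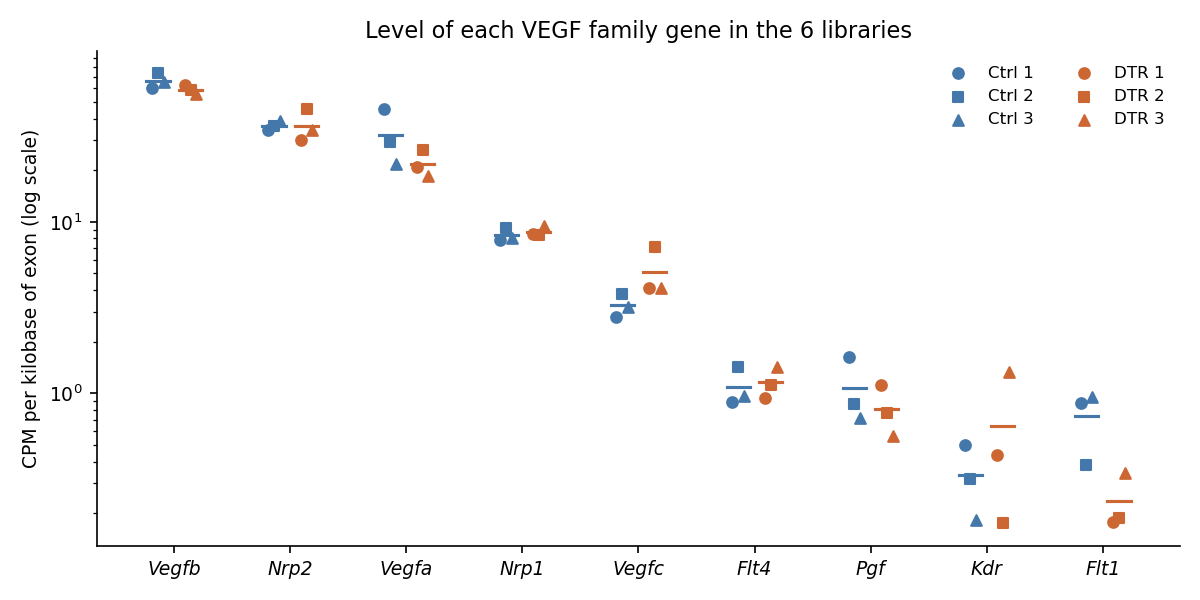
Level of the 9 VEGF family genes in each library, in CPM per kilobase of merged exon on a log scale, ordered by the mean over 6 libraries. Points are single libraries (Ctrl blue, DTR orange, the marker shape giving the replicate number) and short lines are group means (n = 3). All DTR points lie below all Ctrl points for Flt1 and above them for Vegfc, while DTR 3 alone is high for Kdr.

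To ask whether the family differed between DTR and Ctrl, the genes were read from an edgeR quasi-likelihood fit of all 15133 genes, with Benjamini-Hochberg adjustment. The receptor gene Flt1 was lower and the lymphatic ligand gene Vegfc was higher in every DTR library, and the levels of both groups overlapped for the other 7 genes. Of the 9 genes, 0 had an adjusted p under 0.05, beside 0.0% of all genes tested, whose smallest adjusted value was 0.602. Without adjustment, 2 of the 9, Flt1 and Vegfc, had p under 0.05, against 7.92% of all genes (4.11% lower and 3.81% higher in DTR). Groups that did not overlap were found for the same 2, against 14.5% of all genes (8.18% lower and 6.32% higher). Counts this small do not set the family apart from these backgrounds. With DESeq2's Wald test, which the study used, 1 of the 9 was called (Flt1) and 3 had an unadjusted p under 0.05, against 0.151% and 6.37% of 20519 genes. Log2 fold changes were above 0 for 4 genes and below 0 for 5, with a median of -0.002 beside -0.003 over all genes; the sign of Nrp2 turned under other scalings (0.01 and 0.03).

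**Figure D2:**
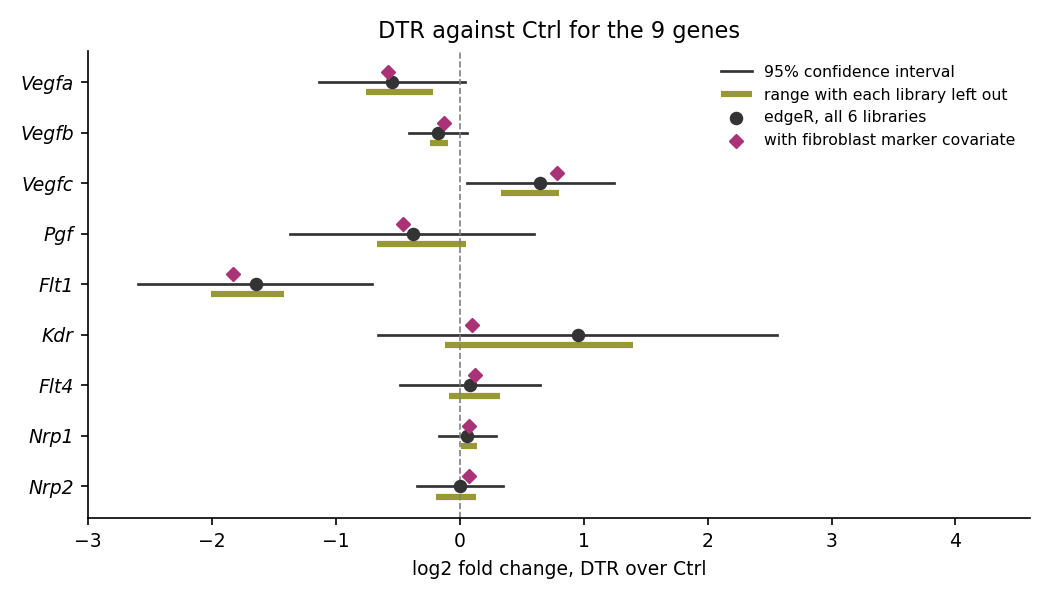
Log2 fold change, DTR over Ctrl, of the 9 genes. Black points and lines are the edgeR estimate and its 95% confidence interval (3 against 3 libraries), olive bars the range of estimates with each library left out in turn, and purple diamonds the estimate with the fibroblast marker sum as a covariate. The interval lies wholly below 0 for Flt1 and wholly above 0 for Vegfc, and the bars of Pgf, Kdr, Flt4 and Nrp2 cross 0.

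Among the ligands, Vegfa (ENSMUSG00000023951, chromosome 17, 46016993 to 46032369 in GRCm38, minus strand) was counted at 194, 125 and 93.3 CPM in Ctrl 1, 2 and 3 and at 89.1, 113 and 79.4 CPM in DTR 1, 2 and 3. Ctrl 1 was high, and DTR 2 lay above Ctrl 3, so the groups overlapped. Means were 137 ± 51.6 and 93.8 ± 17.2 CPM in Ctrl and DTR (SD, n = 3 each), and the log2 fold change was -0.55 (95% confidence interval -1.14 to 0.04, adjusted p = 0.630, edgeR). Without Ctrl 1 it was -0.22. Fewer cells of a type and less RNA per cell cannot be told apart in such sorted bulk samples, here or below.

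Vegfb (ENSMUSG00000024962, chromosome 19, 6982473 to 6987651) encodes the ligand linked to fatty acid transport in some tissues. It was counted at 96.4, 118 and 106 CPM in Ctrl 1, 2 and 3 and at 100, 94.1 and 88.7 CPM in DTR 1, 2 and 3. DTR 1 lay above Ctrl 1, and the other DTR libraries lay below all of Ctrl. Its log2 fold change of -0.18 had a 95% confidence interval of -0.41 to 0.06 (adjusted p = 0.664, edgeR).

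Vegfc (ENSMUSG00000031520, chromosome 8, 54077606 to 54187096), the main lymphangiogenic ligand, was counted at 6.86, 9.25 and 7.84 CPM in Ctrl 1, 2 and 3 and at 10, 17.5 and 10.1 CPM in DTR 1, 2 and 3. These are 168 to 223 counts in Ctrl libraries and 230 to 542 in DTR libraries. Every DTR library was above every Ctrl library, by a small margin except for DTR 2 (p = 0.1 in the two-sided exact permutation test, the lowest value open to 3 against 3 libraries). The log2 fold change was 0.65 (standard error 0.256, 95% confidence interval 0.06 to 1.24), with an adjusted p of 0.604 from edgeR (unadjusted p = 0.0347). It was 0.33 without DTR 2 and 0.78 with the fibroblast marker sum as a covariate, and DESeq2 gave an adjusted p of 0.587. Vegfc spans 109491 bases, and with an offset for genomic span its log2 fold change was 0.51 (unadjusted p = 0.0764, edgeR).

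Pgf (ENSMUSG00000004791, chromosome 12, 85166635 to 85177790) encodes placental growth factor. It had 37 to 116 counts per library, at 4.74, 2.51 and 2.07 CPM in Ctrl 1, 2 and 3 and 3.26, 2.22 and 1.63 CPM in DTR 1, 2 and 3. The groups overlapped, with Ctrl 1 the highest library. EdgeR gave a log2 fold change of -0.38 (95% confidence interval -1.37 to 0.60, adjusted p = 0.827), which was 0.05 without Ctrl 1.

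Vegfd (chromosome X, 164373378 to 164402650), the lymphangiogenic ligand gene outside the 9, was counted at 20.3, 9.38 and 16.3 CPM in Ctrl 1, 2 and 3 and at 31.6, 16.1 and 50 CPM in DTR 1, 2 and 3. DTR 2 lay below Ctrl 1 and Ctrl 3, so the groups overlapped. By edgeR its log2 fold change was 1.09 ± 0.414 (standard error; unadjusted p = 0.0308, adjusted p = 0.602). It was 0.64 without DTR 3 and 1.41 without DTR 2. DTR 3, DTR 1 and Ctrl 1 were the highest libraries for Vegfd and for the fibroblast marker sum and the lowest for the melanoma marker sum (16874, 17668 and 17952 CPM). With the fibroblast sum as a covariate the log2 fold change was 0.67.

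As a share of the ligand transcripts, per length and with Vegfd counted, Vegfb made up most in every library. Its share was 61.3 ± 9.10% (SD, n = 3) in Ctrl and 58.7 ± 2.90% in DTR. Vegfa held 38.3, 26.2 and 22.2% in Ctrl 1, 2 and 3 and 20.5, 26.4 and 18.7% in DTR 1, 2 and 3, with overlap (difference of means -7.05 percentage points, two-sided exact permutation test, p = 0.3), and without Ctrl 1 the difference was -2.33. The share of Vegfc was higher in every DTR library, at 3.01 ± 0.559% in Ctrl and 5.12 ± 1.77% in DTR (two-sided exact permutation test, p = 0.1, n = 3 per group). The share of Vegfd was 5.84 ± 2.03% in Ctrl and 13.5 ± 7.11% in DTR, with overlap (two-sided exact permutation test, p = 0.3, n = 3 per group), and Pgf held 0.566 to 1.38% in any library.

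**Figure D3:**
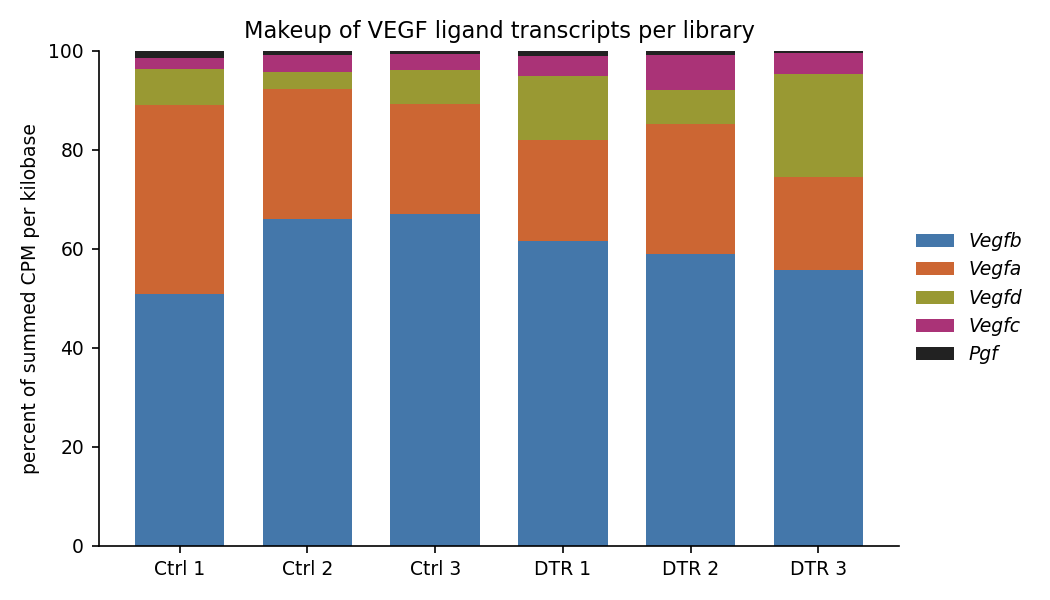
Makeup of VEGF ligand transcripts in each library, as the percent of the summed CPM per kilobase of Vegfb, Vegfa, Vegfd, Vegfc and Pgf; each bar is 1 library and sums to 100%. Vegfb is the largest part in every library (50.8 to 67.0%), the Vegfa part is largest in Ctrl 1 (38.3%) and the Vegfd part in DTR 3 (20.9%).

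Among the receptors, Flt1 (ENSMUSG00000029648, chromosome 5, 147561604 to 147726011, minus strand), whose promoter carries the TGACGTCA match above, had 291, 123 and 365 counts in Ctrl 1, 2 and 3 and 82, 79 and 105 counts in DTR 1, 2 and 3. In CPM these were 11.9, 5.15 and 12.8 in Ctrl and 2.38, 2.54 and 4.63 in DTR. All DTR libraries were lower than all Ctrl libraries, although DTR 3 came close to Ctrl 2 (p = 0.1 in the two-sided exact permutation test). Means were 9.95 ± 4.19 and 3.19 ± 1.25 CPM in Ctrl and DTR (SD, n = 3 each), a fitted level 3.15-fold lower in DTR. The log2 fold change was -1.65 (standard error 0.410, 95% confidence interval -2.60 to -0.71), with an adjusted p of 0.602 from edgeR (unadjusted p = 0.00382), and Flt1 ranked 68 of 15133 genes by p.

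The call of Flt1 depended on the test. DESeq2's Wald test gave a log2 fold change of -1.64 and an adjusted p of 0.0243. Leaving out 1 library at a time, DESeq2 called Flt1 in 2 of the 5 fits that gave it an adjusted p, without Ctrl 2 and without DTR 3, with adjusted p from 0.000464 to 0.391. The size was steadier than the call, at -2.01 to -1.42 in edgeR with each library left out and -1.83 with the fibroblast marker sum as a covariate. Flt1 is a long gene (164408 bases, against a median span of 22641 over genes tested), and with an offset for genomic span its log2 fold change was -1.84.

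Kdr (ENSMUSG00000062960, chromosome 5, 75932827 to 75978458), the main signalling receptor of VEGF-A, was counted at 4.53, 2.85 and 1.65 CPM in Ctrl 1, 2 and 3 and at 3.93, 1.58 and 12.0 CPM in DTR 1, 2 and 3. DTR 3, with 272 counts, was high and DTR 2, with 49, was the lowest in CPM. Its log2 fold change was 0.95 (95% confidence interval -0.66 to 2.56, adjusted p = 0.730, edgeR). It was -0.12 without DTR 3 and 0.10 with the fibroblast marker sum as a covariate, and the highest libraries for Kdr, DTR 3, Ctrl 1 and DTR 1, were also the highest in fibroblast markers and the lowest in melanoma markers.

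Flt4 (ENSMUSG00000020357, chromosome 11, 49609263 to 49652739), the receptor of VEGF-C and VEGF-D, was counted at 7.35, 11.8 and 7.91 CPM in Ctrl 1, 2 and 3 and at 7.77, 9.18 and 11.7 CPM in DTR 1, 2 and 3. The groups covered nearly the same range. Its log2 fold change was 0.08 (95% confidence interval -0.48 to 0.65, adjusted p = 0.941, edgeR). Lymphatic endothelial markers (5 genes) summed to 8.25 to 10 CPM, not scaled to length and so not a measure to set against Flt4. Prox1 made up 85.7% of this sum, while Lyve1 had at most 67 counts in any library and Mmrn1 at most 1.

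The receptors were also read against the endothelial markers, because the sort removed CD31+ cells. The log2 ratio of summed Flt1, Kdr and Flt4 to the endothelial sum was -3.05 ± 0.222 (SD, n = 3) in Ctrl and -3.31 ± 0.560 in DTR (two-sided exact permutation test, p = 0.5), a difference of -0.255 that was -0.716 against Pecam1 and Cdh5 alone and 0.675 for Kdr in place of the 3 receptors. For Flt1 alone the log2 ratio was -3.85, -5.23 and -3.84 in Ctrl 1, 2 and 3 and -6.10, -6.10 and -5.28 in DTR 1, 2 and 3, lower in every DTR library (difference -1.53, two-sided exact permutation test, p = 0.1). Because the endothelial sum varied little (164 to 193 CPM) and was 83.2% Eng, this ratio largely repeats the level of Flt1. It is not a separate result. The ratio of Flt1 to Kdr per length, chosen after its values were seen, was 1.75, 1.21 and 5.19 in Ctrl and 0.406, 1.08 and 0.258 in DTR. Pericyte markers (11 genes, Rgs5 with at most 26 counts in any library) summed to 59.1 to 104 CPM in Ctrl and 46.2 to 61.5 CPM in DTR, with 56.0% of the sum from Mcam, an adhesion gene that melanoma cells also express. Of the 8 pericyte genes tested, 1 was lower in every DTR library, against 8.18% of all genes tested. This was Cspg4, the gene of NG2, named after its values were seen. It had 12.3, 5.82 and 8.72 CPM in Ctrl and 3.02, 4.90 and 5.34 CPM in DTR (log2 fold change -1.02, adjusted p = 0.602, edgeR). The part of pericytes in the level of Flt1 was not tested.

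**Figure D4:**
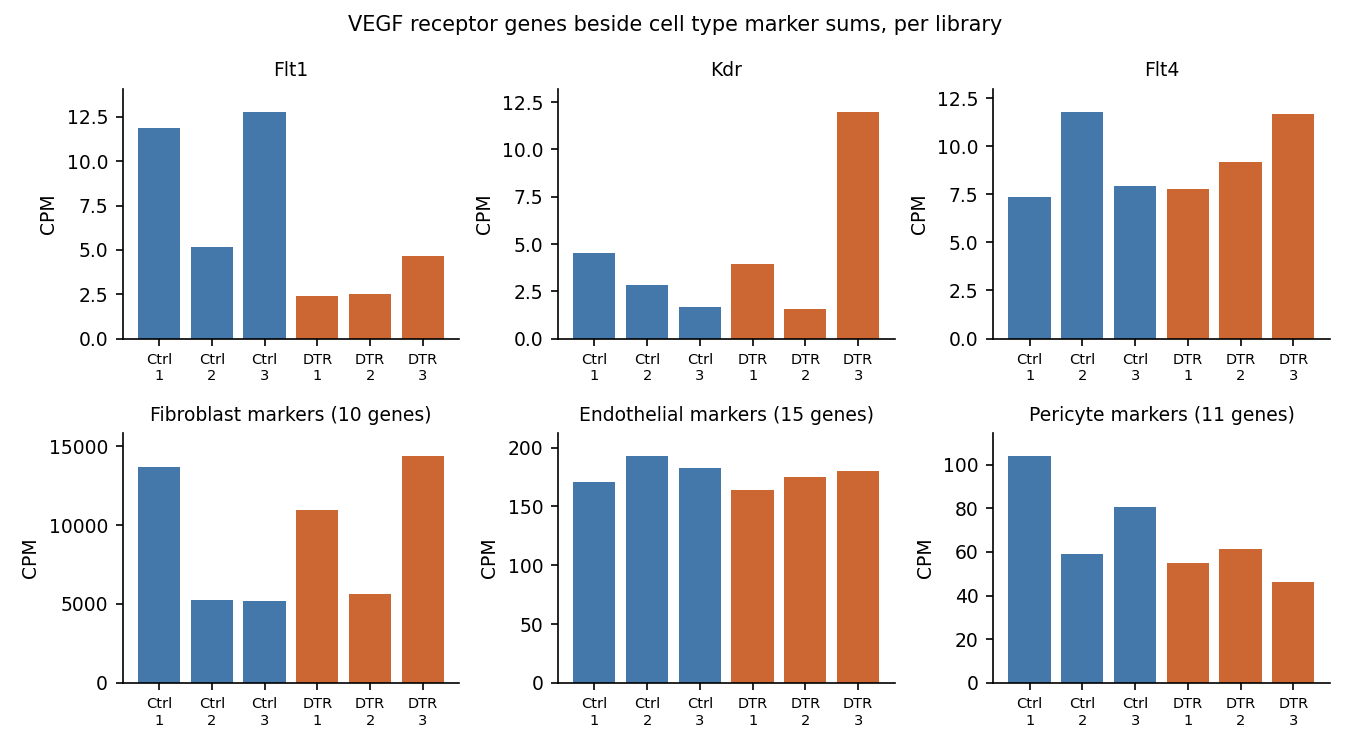
CPM of the receptor genes Flt1, Kdr and Flt4 (top) and summed CPM of fibroblast, endothelial and pericyte markers (bottom) in each library; bars are single libraries, Ctrl blue and DTR orange, and every axis starts at 0. Flt1 is lower in all 3 DTR libraries, Kdr is high in DTR 3, where the fibroblast sum is also highest (14388 CPM), and the endothelial sum stays between 164 and 193 CPM.

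Nrp1 (ENSMUSG00000025810, chromosome 8, 128358604 to 128503363), a co-receptor of VEGFR2, was counted at 76.8, 90.4 and 78.5 CPM in Ctrl 1, 2 and 3 and at 82.6, 81.8 and 92 CPM in DTR 1, 2 and 3. Nrp2 (ENSMUSG00000025969, chromosome 1, 62703285 to 62818695), which pairs with VEGFR3, was counted at 404, 431 and 460 CPM in Ctrl and at 354, 536 and 404 CPM in DTR. The groups overlapped for both, and Nrp2 spread more among the DTR libraries. For Nrp1 the log2 fold change was 0.06 (95% confidence interval -0.17 to 0.29, adjusted p = 0.882, edgeR), and -0.10 with an offset for genomic span. For Nrp2 it was -0.002 (95% confidence interval -0.35 to 0.35, adjusted p = 0.998, edgeR). Per length, Nrp2 exceeded Nrp1 by a ratio of 4.38 ± 0.448 in Ctrl and 4.19 ± 1.06 in DTR (SD, n = 3; two-sided exact permutation test, p = 0.8).

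The partners of the neuropilins were listed as class 3 semaphorins and plexins (12 genes, all tested), of which 0 had an adjusted p under 0.05 by edgeR. Without adjustment, 3 were higher and 2 lower at p under 0.05 (3.81% and 4.11% of all genes tested), and the median log2 fold change was 0.31. The highest was Sema3c at 1.42 (57.5 ± 27.8 CPM in Ctrl and 154 ± 126 CPM in DTR), whose DTR 3 value of 296 CPM stood far above the rest. Its log2 fold change was 0.52 without DTR 3 and 0.74 with the fibroblast marker sum as a covariate. Sema3d (1.18) and Sema3e (1.09), also highest in DTR 3 (27.3 and 16.1 CPM, against at most 11.7 and 6.98 elsewhere), were the others on the higher side, and Plxna1 (-0.31) and Plxnd1 (-0.24), receptors that semaphorins and neuropilins share, those on the lower side, these 4 being named after their values were seen. The lowest was Sema3a at -1.13 (standard error 0.654), and -0.39 without Ctrl 3.

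Of 13 genes for processing and binding of VEGF-C and VEGF-A, 12 were tested and 0 had an adjusted p under 0.05 by edgeR, with 10 log2 fold changes above 0 and a median of 0.21. Pcsk6, a proprotein convertase, was the highest at 1.79 (unadjusted p = 0.0407, edgeR), with 49.0 CPM in DTR 3 and 4.32 to 12.2 CPM elsewhere, and was at 0.46 without DTR 3. The lowest was Ccbe1, a cofactor of VEGF-C cleavage, at -0.88 (standard error 0.794), and 0.26 without Ctrl 1. DESeq2 called 0 of these genes with all libraries, a fit that called 31 genes (0.151% of 20519). Without Ctrl 1 it called 116 genes in all and 3 of this list, named after their values were seen. They were the binding genes Thbs2 (1.43) and Sparc (0.68) and the convertase gene Pcsk5 (1.40). Ctrl 1 had the highest fibroblast marker sum of the Ctrl libraries, and 520 CPM of Thbs2 against 166 and 139 CPM in Ctrl 2 and 3. The part of fibroblast content in these calls was not tested. Of 50 genes of the signalling pathway below the receptors, 0 had an adjusted p under 0.05 by edgeR, 1 was higher and 2 lower at an unadjusted p under 0.05, a share near the 7.92% of all genes tested, and the median log2 fold change was -0.03. These 3, named after their values were seen, were the protein kinase C gene Prkca (0.33) and the MAP kinase kinase genes Map2k1 (-0.24) and Map2k2 (-0.27). By overlap of the groups, 4 of the 50 were higher and 10 lower in every DTR library, against 6.32% and 8.18% of all genes tested. The sum of the list was 3332 to 3442 CPM in Ctrl and 3250 to 3294 CPM in DTR. The extremes were Rac3 at 1.03, with 9 to 29 counts per library and 0.63 without DTR 3, and Sh2d2a, which encodes a VEGFR2 adaptor, at -1.07. Sh2d2a was at -1.60 without Ctrl 1, where DESeq2 called it (adjusted p = 0.0291), at -0.23 without Ctrl 2 and at -0.01 with the fibroblast marker sum as a covariate.

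In the angiopoietin and Tie list, 3 of 5 genes were tested and 0 had an adjusted p under 0.05 by edgeR. Tek, the angiopoietin receptor gene, was the highest at 1.84 (unadjusted p = 0.0462, edgeR). It was counted at 11.2, 4.36 and 7.70 CPM in Ctrl 1, 2 and 3 and at 14.7, 5.99 and 62.9 CPM in DTR 1, 2 and 3, high in DTR 3 like Kdr, and its log2 fold change was 0.42 without DTR 3. Angpt2 was the lowest at -0.11. Of 12 hypoxia targets other than Vegfa, 11 had log2 fold changes below 0, with a median of -0.30. By edgeR 0 of them had an adjusted p under 0.05, and they ran from Car9, which encodes carbonic anhydrase IX, at -1.23 to Adm at 0.03. The 5 with p under 0.05 before adjustment, all lower (4.11% of all genes tested), were Car9, Bnip3 (-0.53), Ero1l (-0.35), Ldha (-0.34) and Pgk1 (-0.23), of which Ero1l, Ldha and Pgk1 were outside the rule for named genes and named after their values were seen, and DESeq2 called Car9 (adjusted p = 0.000245).

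The genes whose log2 CPM followed Vegfa most closely over the 6 libraries were Trnau1ap (Pearson r = 0.989), Tmem129 (0.980) and the hypoxia target Bnip3 (0.977), as a description of 15132 genes of which 86 had an r above 0.9. Those closest to Kdr were Lamb2 (0.993), Pam (0.992) and Fam20a (0.990), with 341 genes above 0.9. These points share their libraries, and DTR 3 was the highest library for Kdr and for Lamb2, Pam and Fam20a (208, 212 and 17.1 CPM).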

How the data were processed

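RNA-seq of 6 libraries was used, 3 per group by the genotype in the labels. The authors trimmed reads with cutadapt 3.4, aligned them to GRCm38 with STAR 2.7.3a, counted them per gene by strand with featureCounts 2.0.1 and deposited raw counts. The deposited table also holds 6 normalized columns and the authors' DESeq2 comparison (means, fold changes, p-values), which were not used here. Genes passing edgeR's filterByExpr (minimum count 10, minimum total 15) were scaled with TMM and compared with its quasi-likelihood test (two-sided), and p-values were adjusted over 15133 genes by Benjamini-Hochberg and a threshold of 0.05. The tools were Python 3.11.15, matplotlib 3.10.9 and R 4.3.3, with DESeq2 1.42.0, edgeR 4.0.16 and limma 3.58.1. The test was checked on simulated counts. Gene positions and exon lengths come from GENCODE M21 (GRCm38), and promoters from RefSeq. Levels between genes are CPM per kilobase of merged exons. Derived values and single genes were compared with the two-sided exact permutation test, which cannot give a p below 0.1 here. The genes and lists were chosen with earlier results of these data known. Named genes were the 9, Vegfd, Pdgfra, Pdpn, Adam12, the lowest and the highest of each list and the 3 closest to Vegfa and to Kdr. Alternatives were other scaling, filters, moderation, DESeq2, limma voom, the replicate number as a block, an offset for genomic span and each library left out. DESeq2 with a library left out and a covariate of fibroblast marker expression were added after seeing the data.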

Additional observations from a re-analysis of the deposited data

How the results depend on the processing

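The count of 0 genes called by edgeR held under other scaling, filters, robust moderation, limma voom, the offset for genomic span and the fibroblast covariate. DESeq2's Wald test called 31 genes, 1 of the 9 (Flt1) and 1 gene of the other lists (Car9). With each library left out, edgeR called 0 to 2 genes, with 0 of the 9 and 0 of the lists, and DESeq2 called 116, 21 and 22 genes without Ctrl 1, 2 and 3 and 201, 84 and 25 without DTR 1, 2 and 3, with 0 to 1 of the 9 and 1 to 5 of the lists. Vegfd was called by DESeq2 without DTR 2 (adjusted p = 0.0137), and Thbs2, Pcsk5, Sparc and Sh2d2a without Ctrl 1 (adjusted p = 0.000112, 0.000299, 0.0255 and 0.0291). The difference in the receptor to endothelial log2 ratio was -0.255, lay between -0.574 and -0.0504 when 1 library was left out, and was -0.716 against Pecam1 and Cdh5 alone and 0.675 for Kdr alone. The Vegfa share differed by -10.4 to -2.33 percentage points with each library left out. The count of the 9 at an unadjusted p under 0.05 was 2 in the main fit and 3 with DESeq2. It was 1 with limma voom, with the offset for genomic span and without Ctrl 1. The cause of these changes was not tested.

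Deviations from the group means correlated with r = 0.146, 0.162 and -0.065 for same-numbered libraries and with r from -0.267 to 0.144 for differently numbered ones. With 3 libraries per group these values cannot decide whether the replicate numbers pair the libraries. With the replicate number as a block, 0 genes were called, as without it, and Adm was at -0.02.

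Some log2 fold changes that did not pass the threshold turned in direction, those of Kdr, Ccbe1 and Lyve1 among the larger ones. Left-out libraries gave ranges of -0.67 to 0.05 for Pgf (0.06 with DESeq2), -0.12 to 1.40 for Kdr, -0.09 to 0.32 for Flt4 (-0.04 with DESeq2 without Ctrl 1), -0.19 to 0.13 for Nrp2 (0.14 with DESeq2), -0.03 to 0.83 for Pdgfra, -0.29 to 0.09 for Angpt2, -0.19 to 0.85 for Col1a1, -0.40 to 0.33 for Adm, -1.47 to 0.89 for Lyve1, -0.14 to 0.03 for Prox1, -0.03 to 0.19 for Mlana, -0.22 to 1.32 for Myh11, -1.37 to 0.26 for Ccbe1, -0.09 to 0.27 for Lamb2, -0.03 to 0.48 for Pam and -0.25 to 0.85 for Fam20a. With the offset for genomic span Flt4 was at -0.001 and Nrp1 at -0.10. Nrp2 was at 0.01 with DESeq2-type size factors, with DESeq2 and with 1 count in any library as the filter, at 0.004 with 10 counts in every library, at 0.03 with library size alone and at 0.07 with the covariate. The covariate also gave -0.05 for Pdgfra, -0.16 for Col1a1, -0.35 for Adm, 0.04 for Prox1, -0.03 for Lamb2 and -0.07 for Fam20a, and limma voom gave -0.09 for Adm. Among the 9 genes, the depth limits Pgf, Kdr and Flt1 most, with as few as 37, 47 and 79 counts in a library.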

Other observations

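The other marker lists held 0 genes with an adjusted p under 0.05 by edgeR. The endothelial list had 8 of 15 genes tested, from Cdh5 at -1.53 (-0.93 without Ctrl 3) to Pecam1 at 0.61 (log2 fold change), with 3 above and 5 below 0 and a median of -0.26. Of these, 1 was higher and 1 lower in every DTR library (6.32% and 8.18% of all genes tested), both named after their values were seen: Vwf at 12.1 to 15.5 CPM in Ctrl and 19.8 to 21.3 CPM in DTR, and Plvap at 1.12 to 1.72 CPM in Ctrl and 0.116 to 0.902 CPM in DTR. The pericyte list had 8 of 11 tested, 7 of them below 0, with a median of -0.68 and extremes of Acta2 at -1.31 (-0.81 without Ctrl 1) and Myh11 at 0.39. All 10 fibroblast markers were above 0, from Col1a1 at 0.10 to Dpt at 1.29 (0.44 without DTR 3), with Pdgfra at 0.29 and Pdpn at 0.37. Macrophage markers ran from Mrc1 at -0.57 to Adgre1 at 0.31, melanoma markers from Sox10 at -0.28 to Mlana at 0.05, and the tested lymphatic markers were Lyve1 at -0.69 and Prox1 at -0.03.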
